A study of Mus musculus with 6 samples.

Results

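The genes described here are ligands of the transforming growth factor-β (TGF-β) family, their intracellular feedback genes and the Id genes, in 427 cells, a mouse thymoma cell line that expresses the membrane protease epithin/PRSS14. They were chosen by gene symbol: Tgfb1, Tgfb2, Inhba, Bmp4, Smad6, Smad7, Skil, Id1, Id2 and Id3. Of these 10 genes 9 were found among 25001 loci, of which 22601 carry a gene symbol, and Id1 was not analysed here. Where a symbol belonged to more than 1 locus, the annotated locus with the highest mean value was taken.

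RNA sequencing gave 6 libraries, 1 for each condition. The 427 cells, labelled as treated with the pSUPER vector, received DMSO or 1 µM phorbol 12-myristate 13-acetate (PMA) for 2 h after 2 h without serum. PMA is a phorbol ester that induces ectodomain shedding of epithin/PRSS14. SP2bKD cells carry a knockdown of SPPL2b, the intramembrane protease that the study examines for release of the epithin/PRSS14 intracellular domain (EICD), and received DMSO or PMA in the same way. The methods of the study describe single-cell clones with a stable shRNA, whereas the labels name an siRNA. The transfected cells were the clone 427(SP2bKD)-10, and the clone that received DMSO or PMA is not given in the sources used here. In the last pair of libraries SP2bKD cells were transfected with a GFP vector alone or together with Flag-tagged EICD, and GFP-positive cells were sorted a day later. The questions were how these genes differ after PMA, in SP2bKD cells and after addition of EICD. Expression is given as FPKM, fragments per kilobase of transcript scaled for library depth, which is a level per length and so allows genes to be set side by side. With 1 library per condition there is no replicate check and no p-value. The error given is a 95% exact binomial interval on the log2 ratio, which covers the counting of fragments and not the variation between cultures.

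Each library held 10555 to 10873 loci at 1 FPKM or above, and its depth was estimated at 25300000 to 29000000 fragments. Sppl2b was not lower in the libraries labelled SP2bKD, at 13.4 FPKM with DMSO and 9.37 with PMA, than in 427 cells, at 9.90 and 6.86. For these libraries that name therefore stands below for the label alone. The study itself presents real-time PCR of SPPL2b mRNA for its knockdown clones and reports less PMA-induced EICD in them. St14, the gene of epithin/PRSS14, had 614.5 FPKM in the library with EICD and 69.6 to 105.4 in the others. Of 10 listed epithelial markers 9 were found and 7 reached an FPKM of 1, with a summed level of 2832 to 4601 FPKM led by the basal keratin gene Krt14. All 10 T cell markers stayed under 1 FPKM, summing to 0.0304 to 0.450, and Cd3e, Cd3d, Cd4, Thy1 and Cd2 were listed at 0 in every library. The fibroblast list summed to 0.461 to 2.40 FPKM, the endothelial list to 0.0687 to 0.875 and the myeloid list to 7.01 to 12.2. In such bulk libraries fewer cells that express a gene and less RNA per cell cannot be told apart.

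TGF-β and activin ligands signal through paired receptor kinases that phosphorylate SMAD2 and SMAD3, and BMP ligands through receptors that phosphorylate SMAD1 and SMAD5. The phosphorylated SMADs join SMAD4 and enter the nucleus. SMAD6 and SMAD7 are inhibitory SMADs, encoded by genes that the pathway itself induces. SKIL (SnoN) is a corepressor of SMAD complexes. The Id genes are classical BMP targets whose products bind E proteins and keep them off DNA. In epithelia the pathway is known for growth arrest and for epithelial-mesenchymal transition.

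RefSeq promoter sequence on GRCm38.p6 was matched for 7 of the 9 genes, all but Skil and Smad7. The 250 bases before the start are printed for the 5 of them that differed more than 2-fold with PMA, since these are the windows in which a reader would look for sites shared by genes that move together. They are chr7:25686752-25687001 on the + strand for Tgfb1, chr13:16011601-16011850 on the + strand for Inhba, chr14:46390670-46390919 on the - strand for Bmp4, chr9:64022060-64022309 on the - strand for Smad6 and chr12:25096093-25096342 on the - strand for Id2. Each is written 5′ to 3′ in the direction of the gene, and capitals mark a motif found on either strand.
Tgfb1: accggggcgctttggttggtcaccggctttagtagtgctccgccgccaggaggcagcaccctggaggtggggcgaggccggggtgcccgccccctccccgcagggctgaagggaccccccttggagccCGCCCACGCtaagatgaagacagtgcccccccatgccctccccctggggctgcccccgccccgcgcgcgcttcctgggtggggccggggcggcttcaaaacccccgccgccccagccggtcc
Inhba: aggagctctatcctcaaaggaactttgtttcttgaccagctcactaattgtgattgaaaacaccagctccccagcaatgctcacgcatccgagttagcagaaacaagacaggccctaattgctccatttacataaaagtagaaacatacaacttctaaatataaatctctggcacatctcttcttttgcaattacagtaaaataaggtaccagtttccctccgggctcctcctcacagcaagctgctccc
Bmp4: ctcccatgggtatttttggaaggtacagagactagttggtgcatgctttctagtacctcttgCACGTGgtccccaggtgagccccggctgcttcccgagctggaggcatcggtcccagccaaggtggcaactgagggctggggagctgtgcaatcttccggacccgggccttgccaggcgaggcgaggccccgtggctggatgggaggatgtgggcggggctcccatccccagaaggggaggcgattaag
Smad6: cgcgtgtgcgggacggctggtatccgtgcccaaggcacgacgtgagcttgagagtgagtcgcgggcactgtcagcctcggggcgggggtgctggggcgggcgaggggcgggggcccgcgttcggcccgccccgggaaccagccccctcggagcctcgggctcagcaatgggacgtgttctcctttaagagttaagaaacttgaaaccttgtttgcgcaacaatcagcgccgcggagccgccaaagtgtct
Id2: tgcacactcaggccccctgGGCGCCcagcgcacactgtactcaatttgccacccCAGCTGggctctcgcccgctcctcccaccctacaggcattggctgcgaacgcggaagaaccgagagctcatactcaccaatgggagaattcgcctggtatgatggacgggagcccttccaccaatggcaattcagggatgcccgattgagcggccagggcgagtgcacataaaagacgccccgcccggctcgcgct

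The 5 windows did not share a motif of the set searched, and they differ in base composition. GC content was 75.2% for Tgfb1, 43.2% for Inhba, 63.2% for Bmp4, 66.8% for Smad6 and 62.8% for Id2, beside a median of 52.4% over 32817 promoters. The capitals in Tgfb1 are the reverse strand of GCGTGGGCG, a site for Egr factors that 0.536% of all promoters hold, at 122 to 114 bases before the start. The capitals in Id2 are GGCGCC, a GC-rich element bound by SMAD1 and SMAD5, at 231 to 226 bases, and CAGCTG, an E box, at 196 to 191 bases. These stand in 9.59% and 13% of all promoters. The capitals in Bmp4 are the E box CACGTG at 188 to 183 bases, which Tgfb2 also holds at 51 to 46 bases and which 6.02% of all promoters have. Tgfb2 holds CAGACA, a SMAD box extended by a base, at 204 to 199 bases, as do 17.1% of all promoters. None of the 7 windows held the AP-1 site TGANTCA, present in 6.75% of promoters, the cyclic AMP response element TGACGTCA, in 1.55%, the Egr site GCGGGGGCG, in 2.57%, or the palindromic SMAD element GTCTAGAC, in 0.168%. Both strands were read, every motif other than CAGACA and the 2 Egr sites is its own reverse complement, no 2 matches overlapped, and a match is a description of letters and not of binding.

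With DMSO the top 4 of the 9 genes stood in the same order in both lines. Inhba, which encodes the activin A subunit, was highest at 134 FPKM in 427 cells and 91.6 in SP2bKD cells. Id3 followed at 26.0 and 32.1, then Skil at 15.6 and 13.7 and Tgfb1 at 9.12 and 9.94. Tgfb2 was lowest of the 9 genes in both. It stayed under 1 FPKM in all 6 libraries, so 8 of the 9 genes pass the minimum used for counts, 1 FPKM in either library of a pair. Smad6 missed it also where the PMA libraries of both lines were compared, which leaves 7 there. In both sorted libraries Id3 stood first, Inhba next and Id2 after it, although Id3 and Inhba were close with GFP at 83.8 and 80.8 FPKM. The order has no replicate error, and neighbours as close as these are not told apart by it.

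**Figure D1:**
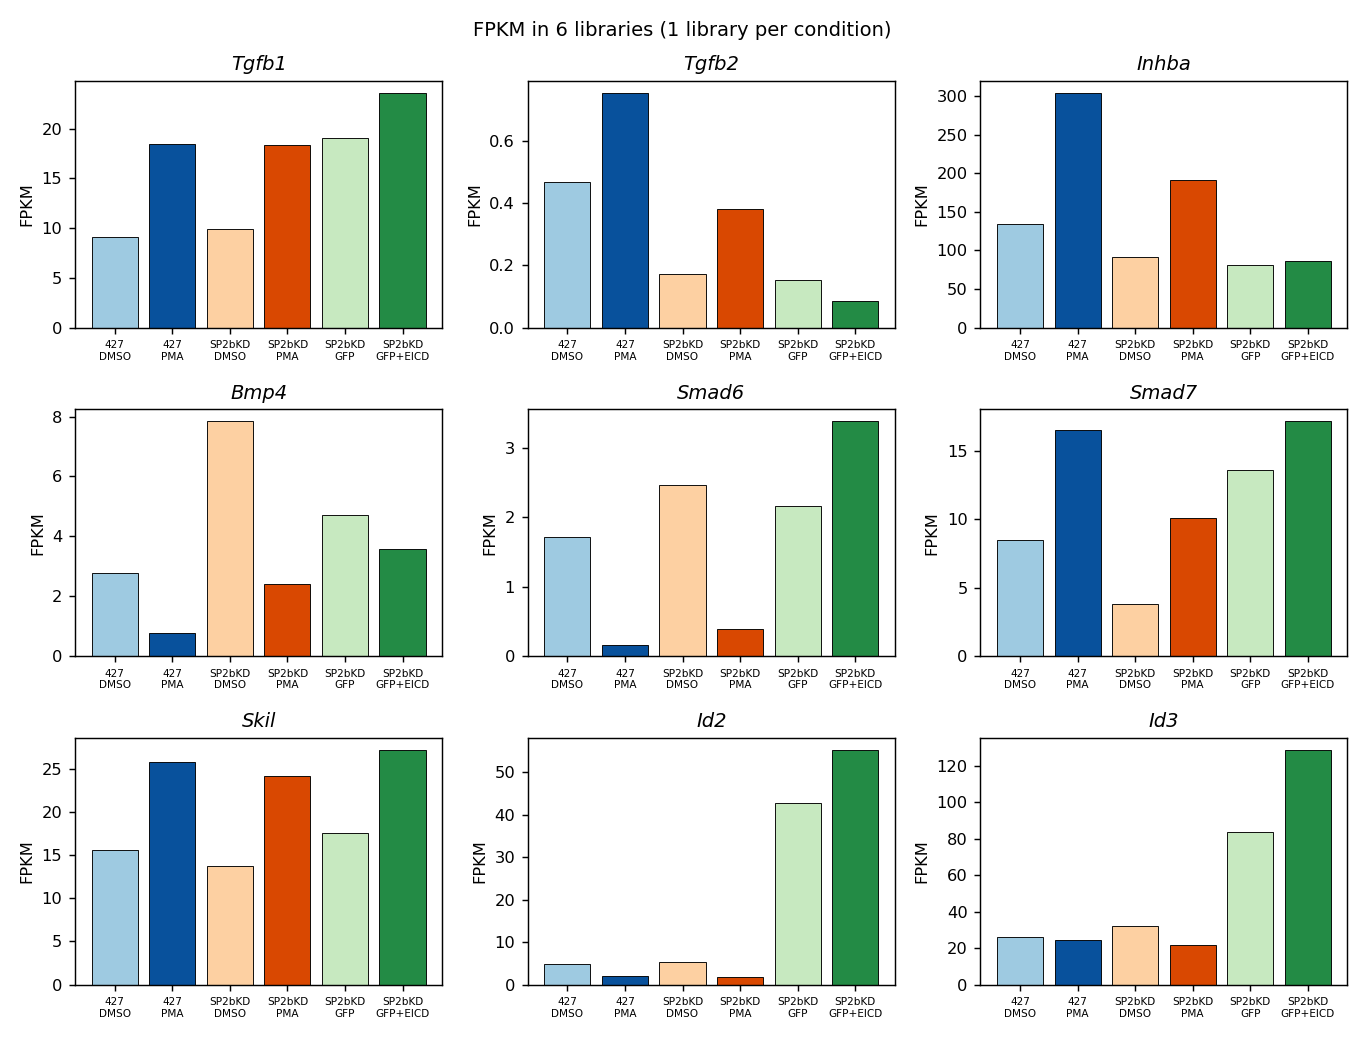
Bars give FPKM (vertical axis, from 0, on its own scale for each gene) of 9 genes in 6 libraries, 1 library per condition, in 427 cells and SP2bKD cells with DMSO or PMA and in GFP-sorted SP2bKD cells with GFP or GFP plus EICD. Smad6 and Bmp4 were lower with PMA in both lines, and Id2 and Id3 were highest in the sorted pair.

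PMA in 427 cells went with higher levels of the ligand genes Tgfb1 and Inhba and lower levels of Bmp4, Smad6 and Id2. Of the 8 genes that pass the minimum, 2 were more than 2-fold higher (Tgfb1 and Inhba), where 3.91% of 10643 loci were, and 3 were more than 2-fold lower (Bmp4, Smad6 and Id2), where 4.67% were. Smad7 lay just short of the 2-fold line at a log2 fold change of 0.96. With each library scaled to the same FPKM sum both higher calls ended, at 0.76 for Tgfb1 and 0.93 for Inhba, and Tgfb1 also fell short of 2-fold with the upper quartile scaling (0.99) and with 1 FPKM added before log2 in place of 0.01 (0.94). With 1 added Id2 had -0.90 and its lower call ended too. In SP2bKD cells 2 were more than 2-fold higher (Inhba and Smad7), where 3.51% of 10624 loci were, and 3 were more than 2-fold lower, again Bmp4, Smad6 and Id2, where 5.69% were. The median of the 8 genes was 0.31 in 427 cells and 0.13 in SP2bKD cells, beside -0.12 and -0.15 for all loci counted. These medians hide opposite directions and move with the choice of genes, as the single values show.

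Tgfb1 (chromosome 7, 25686989 to 25705077 on GRCm38, + strand), which encodes TGF-β1, had 9.12 FPKM with DMSO and 18.5 with PMA in 427 cells, and 9.94 and 18.3 in SP2bKD cells. It had 19.0 with GFP and 23.6 with GFP plus EICD. The log2 fold change with PMA was 1.02 (0.88 to 1.16) in 427 cells and 0.88 (0.75 to 1.02) in SP2bKD cells, so it straddled the 2-fold line at nearly equal size. The 4 PMA and sorted libraries all lay above both DMSO libraries.

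Inhba (chromosome 13, 16011851 to 16036481, + strand) had 134 FPKM with DMSO and 304 with PMA in 427 cells, 91.6 and 191 in SP2bKD cells, and 80.8 and 85.9 in the sorted pair. The changes with PMA were 1.18 (1.16 to 1.20) and 1.06 (1.03 to 1.09) on the log2 scale. Its model shares 1044 bases with a newly assembled locus on the other strand that reached at most 0.568 FPKM, and 279 bases with an unnamed one that had 5.10 FPKM in 427 cells with DMSO and was listed at 0 elsewhere. Both levels are small beside those of Inhba.

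Follistatin, encoded by Fst, binds activin and blocks it. Fst had 74.0 FPKM with DMSO and 136.9 with PMA in 427 cells, and 60.0 and 108.8 in SP2bKD cells, so it was higher along with Inhba. The ratio of Inhba to Fst therefore stayed between 1.53 and 2.22 in these 4 libraries, and was 0.879 with GFP and 1.14 with GFP plus EICD. The other activin subunit gene, Inhbb, had a log2 fold change of -0.63 with PMA in 427 cells and 0.33 in SP2bKD cells, and Inhba exceeded it in every library, by 7.05 to 34.6 times. These ratios were chosen after the values of the genes had been seen.

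Tgfb2 (chromosome 1, 186622541 to 186705989, - strand), which encodes a second TGF-β isoform, had 0.468 FPKM with DMSO and 0.754 with PMA in 427 cells, 0.171 and 0.381 in SP2bKD cells, and 0.151 and 0.0870 in the sorted pair. These levels stand on an estimated 11.8 to 110 fragments. The log2 fold changes with PMA, 0.68 (0.23 to 1.15) and 1.11 (0.39 to 1.88), had the sign of those of Tgfb1 and Inhba.

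Bmp4 (chromosome 14, 46383520 to 46390669, - strand), the only BMP ligand among the chosen genes, moved the other way. It had 2.78 FPKM with DMSO and 0.774 with PMA in 427 cells, 7.84 and 2.42 in SP2bKD cells, and 4.70 and 3.58 in the sorted pair. PMA went with log2 fold changes of -1.83 (-2.37 to -1.37) and -1.69 (-1.98 to -1.42), a level 3.59 and 3.24 times lower, on an estimated 45.4 to 418 fragments per library. It shares 89 bases with Gm15217, which reached at most 0.0703 FPKM.

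Noggin, encoded by Nog, sequesters BMP ligands. Nog was lower with PMA as well, at 6.01 and then 1.96 FPKM in 427 cells and 4.34 and then 1.16 in SP2bKD cells, with log2 fold changes of -1.61 and -1.89. The ratio of Bmp4 to Nog differed little with PMA, at 0.463 and 0.394 in 427 cells and 1.81 and 2.08 in SP2bKD cells, and was 0.710 and 0.780 in the sorted pair.

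Smad6 (chromosome 9, 63953076 to 64022059, - strand), whose product preferentially inhibits BMP signalling, had the lowest fold change of the 9 genes. It had 1.71 FPKM with DMSO and 0.165 with PMA in 427 cells, 2.47 and 0.395 in SP2bKD cells, and 2.16 and 3.38 in the sorted pair. With PMA it was 10.4 times lower in 427 cells, at a log2 fold change of -3.30 (-4.28 to -2.58), and 6.24 times lower in SP2bKD cells, at -2.61 (-3.21 to -2.11). That placed it 9th from the lowest of 10643 loci and 28th from the lowest of 10624. With 1 added the values were -1.22 in 427 cells and -1.31 in SP2bKD cells, so that their size and the order of the lines rest on the amount added. The PMA levels rest on an estimated 13.9 and 34.1 fragments, and the 2 PMA libraries lay below the other 4.

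Smad7 (chromosome 18, 75367386 to 75395935, + strand), whose product inhibits both TGF-β and BMP receptors, moved opposite to Smad6. It had 8.49 FPKM with DMSO and 16.5 with PMA in 427 cells, 3.82 and 10.1 in SP2bKD cells, and 13.6 and 17.2 in the sorted pair. The log2 fold changes with PMA were 0.96 (0.85 to 1.07) and 1.40 (1.24 to 1.56). The ratio of Smad7 to Smad6, also formed after the values had been seen, was 4.95 with DMSO and 100.4 with PMA in 427 cells, 1.55 and 25.5 in SP2bKD cells, and 6.31 and 5.08 in the sorted pair. Both inhibitory SMAD genes are feedback genes of the pathway, and at these FPKM their balance differed over 10-fold with PMA in each line. That size rests on the low Smad6 levels with PMA, 0.165 FPKM in 427 cells and 0.395 in SP2bKD cells. With 1 added, Smad7 had 0.89 and Smad6 -1.22 in 427 cells, and 1.20 and -1.31 in SP2bKD cells. The balance then differed by less than 10-fold in each line, in the same direction.

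Skil (chromosome 3, 31094970 to 31122577, + strand) was higher with PMA by less than 2-fold. It had 15.6 and 25.7 FPKM in 427 cells, 13.7 and 24.2 in SP2bKD cells, and 17.5 and 27.2 in the sorted pair. The log2 fold changes were 0.72 (0.66 to 0.79) and 0.82 (0.75 to 0.89). Ski, which encodes the related corepressor, went the other way, at -0.90 and -0.76, from 36.9 to 19.8 FPKM and from 34.5 to 20.4. The ratio of Skil to Ski was 0.422 and 1.30 in 427 cells and 0.398 and 1.18 in SP2bKD cells, so Skil passed Ski in the PMA libraries and in neither DMSO library.

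Id2 (chromosome 12, 25093801 to 25096092, - strand) had 4.78 FPKM with DMSO and 2.09 with PMA in 427 cells, and 5.36 and 1.78 in SP2bKD cells. The log2 fold changes were -1.19 (-1.52 to -0.87) and -1.58 (-1.93 to -1.25). Id3 (chromosome 4, 136143497 to 136145755, + strand) had 26.0 and 24.3 FPKM in 427 cells, and 32.1 and 21.9 in SP2bKD cells. Its log2 fold changes were -0.10 (-0.23 to 0.04), an interval that includes 0, and -0.55 (-0.68 to -0.42). The genes of the E proteins that Id products bind, Tcf3, Tcf4 and Tcf12, lay between -0.43 and -0.11 in both lines. None reached 2-fold, and the medians of all loci were -0.12 in 427 cells and -0.15 in SP2bKD cells. Tcf4 and Tcf12 were near these medians, at -0.18 and -0.21 in 427 cells and -0.13 and -0.11 in SP2bKD cells. Tcf3 had -0.43 and -0.40.

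**Figure D2:**
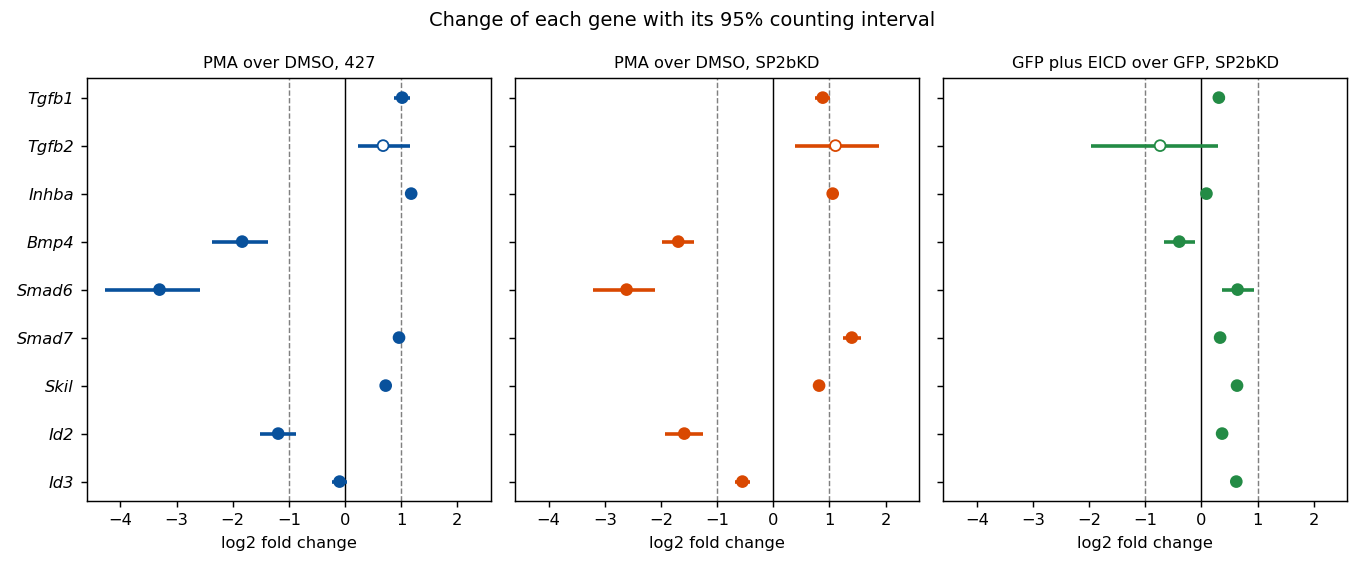
Points give the log2 fold change of 9 genes and lines the 95% counting interval, for PMA over DMSO in 427 cells, PMA over DMSO in SP2bKD cells and GFP plus EICD over GFP, with dashed lines at 2-fold and open points for Tgfb2, which stayed under 1 FPKM. Smad6 lay at -3.30 and -2.61 with PMA, and no filled point in the EICD panel reached 2-fold.

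All 9 genes had the same sign with PMA in both lines. The share of all loci that did was not counted, so this count has no background beside it. Each of these signs was kept under the other scalings and the sum over loci of a symbol. For Id3 in 427 cells the value came to -0.00057 with the median of ratios, so its sign is hardly held. The other added amounts and the filters cannot change a sign, so they are no check of it. The counting intervals of the lines did not overlap for 3 of the 9 genes. The log2 fold change in 427 cells minus that in SP2bKD cells was -0.44 for Smad7, 0.45 for Id3 and 0.12 for Inhba. For Smad6, at -0.69, the intervals overlapped, as they did for Tgfb1, Tgfb2, Bmp4, Skil and Id2. Whether these differences exceed those between cultures was not tested.

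**Figure D3:**
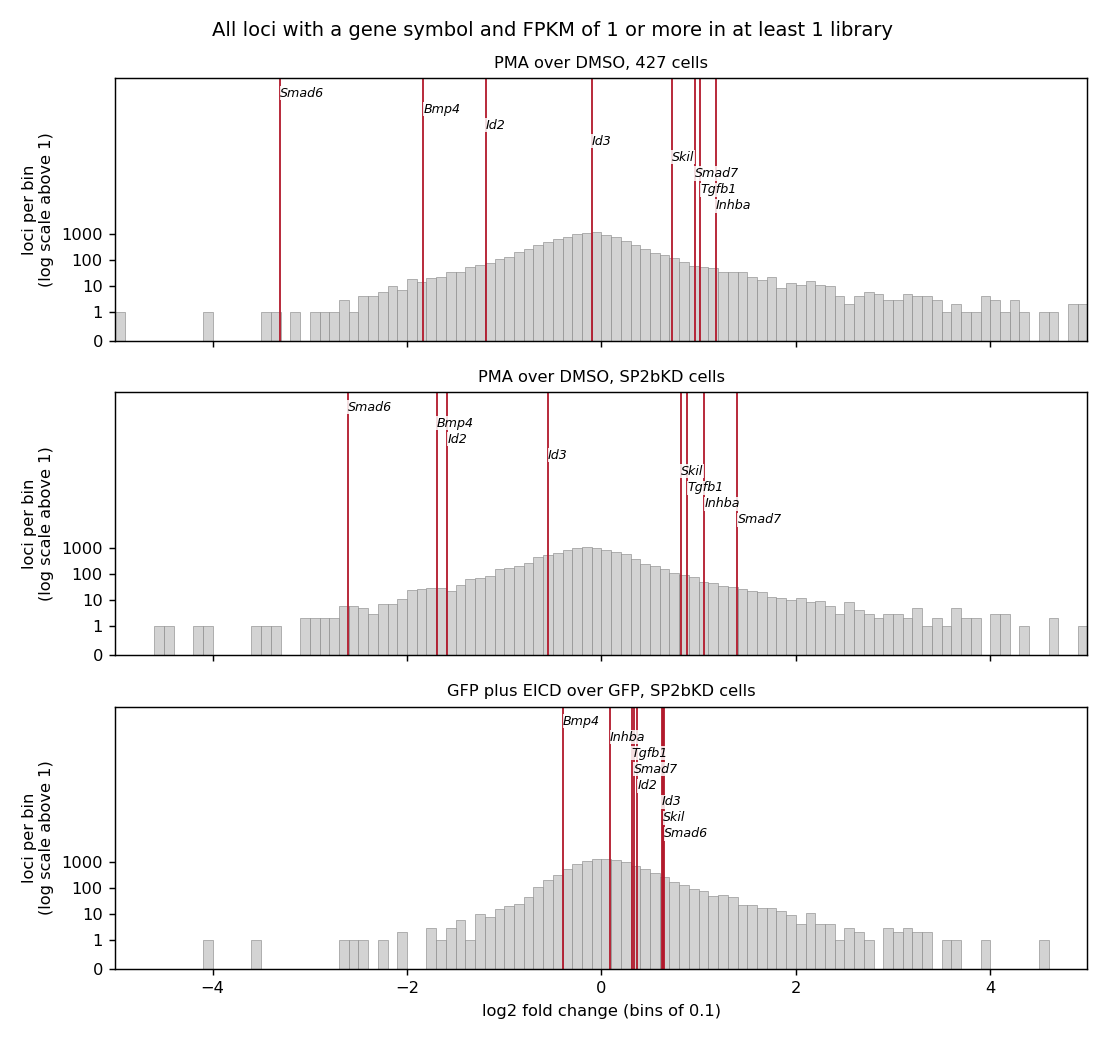
Grey bars count named loci that reach 1 FPKM in either library of the pair, in bins of 0.1 log2 units (vertical axis logarithmic above 1, horizontal axis cut at 5 on either side), and red lines mark the 8 genes that pass the same minimum. In both PMA panels Smad6, Bmp4 and Id2 stood in the left tail and Inhba, Tgfb1, Smad7 and Skil in the right shoulder, while in the EICD panel all 8 lay within 2-fold of 0.

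Lists of other genes of the pathway were read for their counts over 2-fold, against the shares of all loci given above. None of 9 receptor genes that pass the minimum reached 2-fold in 427 cells, and in SP2bKD cells Tgfbr3, the betaglycan co-receptor gene, was lower at -1.05 and Acvr1b, an activin receptor gene, at -1.08, where they had -0.94 and -0.77 in 427 cells. The list medians were -0.18 and 0.02. Tgfbr1 and Tgfbr2, the TGF-β receptor genes proper, had 0.56 and 0.41 in 427 cells and 0.39 and 0.40 in SP2bKD cells.

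None of 5 SMAD genes of the receptor-regulated and common kind passed 2-fold in either line. Smad3 had 0.41 and 0.70 and Smad4 had -0.28 and -0.27, and the list medians were 0.26 and 0.20. Among other ligand genes 1 of 5 was lower in 427 cells, Tgfb3 at -1.05, and 1 of 4 in SP2bKD cells, Inha, the inhibin α subunit gene, at -1.60, with list medians of -0.62 and -0.19. Nog was the only gene past 2-fold among extracellular inhibitors and latency proteins, of 10 in 427 cells and 9 in SP2bKD cells, and the medians were -0.01 and -0.08. Tgif1, which encodes a corepressor of SMADs, was the only gene past 2-fold of 13 intracellular regulators, at 1.28 and 1.16, from 57.7 to 140.6 FPKM and from 49.7 to 110.8, and the medians were 0.11 and 0.08.

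Known target genes of the pathway went both ways. In 427 cells 2 of 11 were more than 2-fold higher and 2 lower, with a list median of 0.29. The higher ones were Junb, an AP-1 subunit gene, at 1.02, and Tsc22d1 at 1.21. The lower ones were Cdkn2b, the gene of the cell cycle inhibitor p15, at -1.55, and Tgfbi, an extracellular matrix gene, at -1.32. In SP2bKD cells 2 of 11 were again higher, the matricellular gene Ctgf at 1.69 and Junb at 1.04, and the same 2 lower, Cdkn2b at -1.03 and Tgfbi at -1.26, with a median of 0.045.

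**Figure D4:**
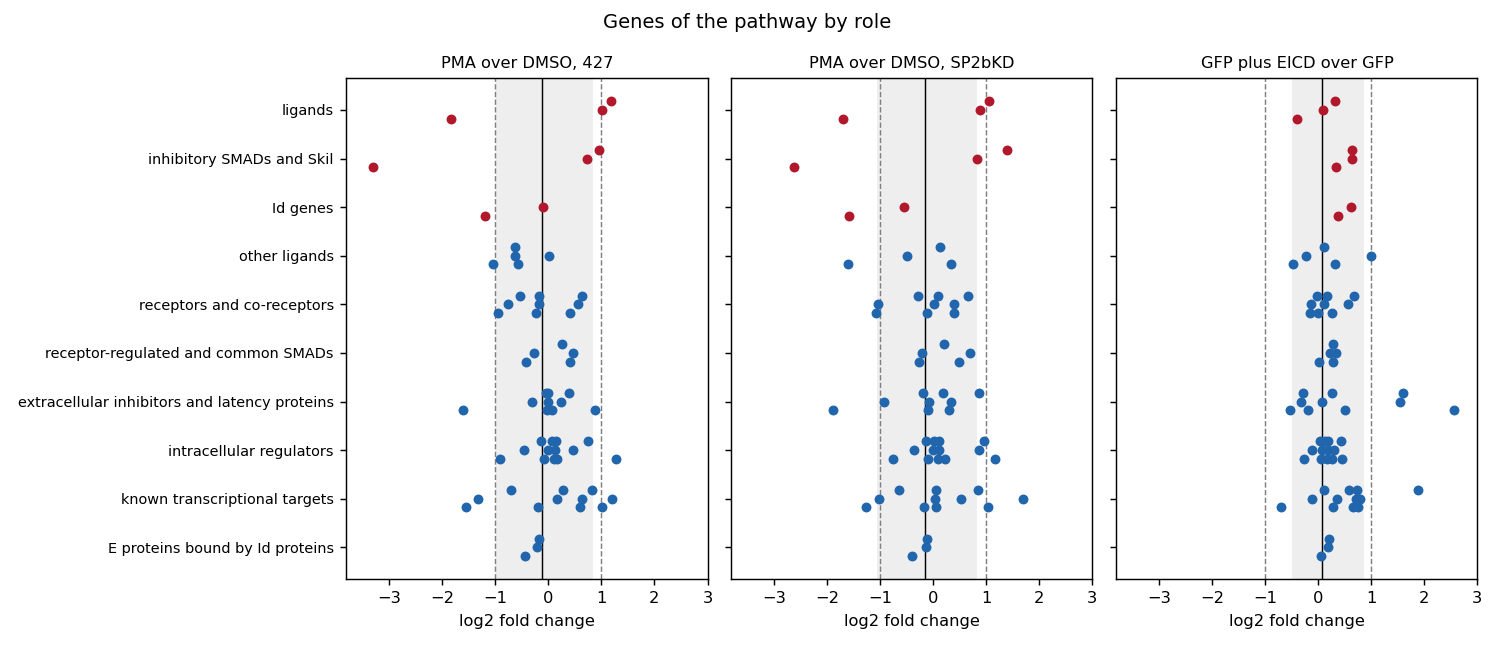
Each point is a gene that reaches 1 FPKM in either library of the pair, placed by its log2 fold change (horizontal axis) in rows by role, red for the chosen genes and blue for the rest of the pathway, and grey bands hold the middle 90% of all loci, a black line their median and dashed lines 2-fold. Smad6 and Bmp4 with PMA, at -3.30 and -1.83 in 427 cells, lay farther left than any blue point in the same panel, and Lrrc32 with EICD, at 2.55, farthest right.

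EICD was compared between the sorted SP2bKD libraries, and no chosen gene differed by 2-fold. The count was 0 of 8 in either direction, where 3.55% of 10687 loci were more than 2-fold higher and 0.524% lower. Of the 8 genes 7 were above 0, as were most of all loci counted, and the median was 0.35 beside 0.07 for all loci. Smad6, Skil and Id3 had the highest values. Smad6 differed by 0.64 (0.36 to 0.94), Skil by 0.63 (0.57 to 0.70) and Id3 by 0.62 (0.55 to 0.69), each above 90.7% of loci or more. Id2 had 0.37 (0.29 to 0.45), Smad7 0.33 (0.23 to 0.43) and Tgfb1 0.31 (0.20 to 0.42). Inhba was nearly level at 0.09 (0.05 to 0.12), a sign that turned to -0.09 when each library was scaled to the same FPKM sum. Bmp4 was the gene below 0, at -0.39 (-0.67 to -0.12), and Tgfb2, under the minimum, had -0.74 with an interval that includes 0 (-1.98 to 0.29).

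For Smad6, Id2 and Id3 the direction with EICD was opposite to that with PMA. The PMA interval of Id3 in 427 cells includes 0. Smad6 had its highest level of the series, 3.38 FPKM, in the library with EICD. Id3, Id2, Skil, Smad7 and Tgfb1 were also highest in that library. Immediate early genes stood higher there too, Fos at 244 FPKM against 148 with GFP and Egr1 at 171 against 88.8, and their part in these values was not tested.

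Among the other genes of the pathway 4 were more than 2-fold higher with EICD. Of 10 extracellular inhibitors and latency proteins 3 were, Lrrc32, which encodes GARP, a surface anchor of latent TGF-β, at 2.55 (0.959 to 5.68 FPKM), Ltbp2, a latent TGF-β binding protein family gene, at 1.60 (11.2 to 34.1), and Bmper, a BMP-binding modulator gene, at 1.54 (0.462 to 1.36). Of 12 target genes 1 was, Atoh8, at 1.88 (0.899 to 3.34). Among these 12 genes 10 were above 0 and 2 below, with a list median of 0.62 beside 0.07 for all loci. Atoh8 was at 0.496 FPKM with DMSO and 0.0223 with PMA in 427 cells, under the minimum. Its lowest level was with PMA and its highest with EICD, as for Smad6, Id2 and Id3. Id2 and Id3 already stood at 42.9 and 83.8 FPKM with GFP alone. The other lists had 0 genes past 2-fold, with medians of 0.11 for 9 receptors, 0.28 for 5 SMADs, 0.17 for 13 intracellular regulators, 0.11 for 5 other ligands and 0.19 for 3 E proteins.

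The lines themselves differed in Bmp4 and Smad7. These comparisons reuse the DMSO and PMA libraries above. With DMSO 1 of 8 genes was more than 2-fold higher in the library labelled SP2bKD, Bmp4 at 1.49 (1.23 to 1.77), where 3.11% of 10706 loci were, and 1 was lower, Smad7 at -1.15 (-1.32 to -0.98), where 2.76% were. The Smad7 call ended with 1 added, at -0.98, and with the same FPKM sum, at -0.18. Tgfb2, under the minimum, had -1.40 (-2.19 to -0.73). Inhba had -0.55 (-0.58 to -0.52) and Smad6 0.52 (0.20 to 0.85), and Tgfb1, Skil, Id2 and Id3 lay between -0.18 and 0.30. The median of the 8 was 0.14 beside 0.05 for all loci.

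With PMA Bmp4 was again higher in the library labelled SP2bKD, at 1.63 (1.17 to 2.17), the only 1 of 7 genes past 2-fold, where 2.19% of 10518 loci were higher and 2.75% lower. With 1 added it had 0.95. Smad7 had -0.71 (-0.82 to -0.61) and Inhba -0.67 (-0.69 to -0.65). The other 4 lay between -0.23 and -0.01, and the median was -0.15 beside 0.02. Scaling each library to the same FPKM sum raised the median of all loci by 0.97 with DMSO and 1.25 with PMA, and under it Inhba and Skil changed sign with DMSO, and with PMA Tgfb1, Tgfb2, Inhba, Smad7, Skil, Id2 and Id3. Bmp4 and Smad6 kept theirs under every scaling. Other ligand genes lower in the library labelled SP2bKD with DMSO were Inha at -1.43, Inhbb at -1.44 and Bmp7 at -2.80, 3 of 5 that pass the minimum; Inhbb and Bmp7 are named after their values were seen.

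Id2, Smad7 and Id3 were higher in transfected and sorted SP2bKD cells than in untransfected ones. The GFP library was set against SP2bKD cells with DMSO, a comparison that combines transfection, sorting, serum, DMSO and possibly the clone, whose parts cannot be told apart. In it 3 of 8 genes were more than 2-fold higher, where 3.56% of 10687 loci were, and none lower, where 4.14% were. Id2 had 5.36 FPKM before and 42.9 after, 8.0 times higher at a log2 fold change of 3.0 (2.82 to 3.19), the 46th highest of all loci. Smad7 had 1.83 (1.68 to 1.99) and Id3 1.39 (1.28 to 1.49). Tgfb1, just short of 2-fold, had 0.94 (0.80 to 1.08).

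Bmp4 had -0.74 (-0.97 to -0.51), Skil 0.35 (0.27 to 0.43), and Inhba, Smad6 and Tgfb2 lay between -0.19 and -0.17. The median of the 8 genes was 0.64 beside -0.08. The immediate early genes Fos and Egr1, also targets of serum, had log2 fold changes of 7.48 and 4.14 in the same comparison. Their part in the levels of the Id genes was not tested. Since the same GFP library is the control for EICD, the EICD values above start from these levels.

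Across the 6 libraries Id2 varied most, with its highest level 31.1 times its lowest, followed by Smad6 at 20.5 times, Bmp4 at 10.1 and Tgfb2 at 8.67. Skil varied least, at 1.98. Of the 9299 annotated genes that reach 1 FPKM in every library, the ones with the pattern most like that of Id3 were Dsc3 and Zfp36, with root mean square differences of 0.130 and 0.152 log2 units over the 6 libraries after centring. For Tgfb1 they were Steap1 (0.125) and Tmem158 (0.126), for Inhba Ugcg (0.150) and Gfod1 (0.154), and for Smad7 Orai2 (0.127) and Tns4 (0.223). Id2 had no close match, and its nearest genes were Tgfbi (0.635) and Arhgap22 (0.671). The 6 points of each pattern share their libraries, and the likeness is a description.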

How the data were processed

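RNA from 6 conditions was sequenced, with 1 library per condition and groups taken from the sample labels. The authors aligned paired-end reads to GRCm38 with TopHat, and deposited FPKM per locus from Cufflinks and Cuffdiff, newly assembled loci included. The submitters' processing notes list TopHat2 2.1.1, Cufflinks 2.1.1, Cuffdiff 2.1.1 and STAR 2.4.0b. FPKM depends on the assembled models and on Cuffdiff's scaling.

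From the deposited FPKM, log2 ratios were computed after adding 0.01 to both libraries, an addition that shrinks changes of low genes. Counts and medians were taken over named loci that reach 1 FPKM in either library. A gene past 2-fold was counted as higher or lower. No test across genes was run. The depth of each library was estimated from the smallest step of FPKM times length in a set of 879 annotated single-transcript genes longer than 2500 bases. Fragments per gene use the longest GENCODE transcript and are upper estimates, so the 95% exact binomial intervals are approximate. The estimate was tried on counts simulated under its own model, which cannot show errors from the assembled models or from Cuffdiff's scaling. Motifs were searched in RefSeq promoters, and no RefSeq protein was used. Python 3.11.15, NumPy 2.4.6, pandas 2.3.3, SciPy 1.17.1 and matplotlib 3.10.9 were used.

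The genes and lists were chosen with earlier results of these data known. Every chosen gene is named, and from each other list the genes past 2-fold with PMA or EICD, at most the 4 largest per comparison, beside some related genes of known function, the ratios of gene pairs and the genes noted as named later, which were chosen after their values were seen. Genes of like pattern were taken for chosen genes with 1 FPKM or more in all libraries and a range of at least 2-fold. Alternatives were another added amount, other filters, 3 other scalings and the sum over loci of a symbol. Id1 was not analysed here, and a gene of the target list is not reported here and was left out of its counts, medians and plot.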

Additional observations from a re-analysis of the deposited data

Results flagged for a closer look

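Egr1, an immediate early gene read here as a check on stimulation, had a log2 fold change with PMA of -0.25 in 427 cells and 0.86 in SP2bKD cells, that is 10.3 and 8.63 FPKM and then 5.02 and 9.14 FPKM. It drew attention because the directions were opposite in the lines, each with 1 library per condition, and the difference was not tested. Fos was higher with PMA in both, at 2.41 and 1.61. None of the 9 chosen genes had opposite signs with PMA in the 2 lines, and the share of all loci that had was not counted.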

How the results depend on the processing

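Each condition has 1 library, so no value has an error between cultures, and no alternative here could supply one. The labels carry no replicate numbers, so there was no replicate block. A fit of PMA with the line as a block, which would treat the lines as repeats of each other and leave 1 residual degree of freedom, was not run. Of 495 single-gene values under the alternatives 440 moved by less than their counting interval, 55 moved by more and 0 changed the sign of a difference past 2-fold. Of those 55, 29 arose with scaling to an FPKM sum of 1000000, 15 with 1 added, 9 with the median of ratios and 2 with the upper quartile. Omitting the filter, or a minimum of 0.1 or 10, leaves the value of a single gene as it is. Under each of these settings 54 of 54 values were therefore the same by construction, so the 440 is not a rate of stability. The sum over loci also left 54 of 54 within their intervals. For PMA in 427 cells the count of 5 genes past 2-fold became 3 with 1 added, 2 of 5 genes at a minimum FPKM of 10 and 3 with the FPKM sum, and the median of 0.31 became 0.68 without a filter or with a minimum of 0.1, 0.96 with a minimum of 10 and 0.062 with the FPKM sum. For PMA in SP2bKD cells the count of 5 became 2 with a minimum of 10, and the median of 0.13 became 0.82 without a filter or with a minimum of 0.1 and 0.88 with a minimum of 10. Between the lines with DMSO the count of 2 became 1 with 1 added, 0 of 3 genes with a minimum of 10 and 5 with the FPKM sum, and the median of 0.14 became -0.18 with a minimum of 10 and 1.10 with the FPKM sum. Between the lines with PMA the count of 1 became 0 with 1 added or with a minimum of 10, 2 without a filter or with a minimum of 0.1 and 4 with the FPKM sum, and the median of -0.15 became 1.09 with the FPKM sum. With EICD the median of 0.35 became 0.17 with the FPKM sum. For GFP against untransfected cells the median of 0.64 became 0.35 without a filter or with a minimum of 0.1 and 1.16 with a minimum of 10. A minimum of 10 leaves fewer genes and drops Bmp4 and Smad6, and 1 added to both libraries shrinks the changes of low genes by construction. The FPKM sum shifted the median of all loci by -0.25 for PMA in 427 cells, 0.97 and 1.25 between the lines and -0.18 with EICD. The median of ratios shifted it by 0.12 for PMA in SP2bKD cells. The depth limits Smad6 and Tgfb2 most, with an estimated 13.9 and 11.8 fragments in their lowest libraries.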

Other observations

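Of the 7 epithelial markers that reach 1 FPKM, 6 were above 0 and 1 below with PMA in each line. Their medians were 0.82 in 427 cells and 0.63 in SP2bKD cells, beside -0.12 and -0.15 for all loci. Past 2-fold were Cldn4, a tight junction gene, at 2.14 and 1.62, and in 427 cells Krt18, a keratin gene, at 1.26, beside 0.78 in SP2bKD cells. Krt14, the most abundant of the list, had -0.14 and -0.40. The others stayed under 2-fold. Epcam, a cell adhesion gene of epithelia, had 169 FPKM with DMSO and 299 with PMA in 427 cells, and 209 and 322 in SP2bKD cells. Cdh1, the gene of E-cadherin, had 123 and 231 FPKM, and 141 and 236. Krt8, a keratin gene of simple epithelia, had 80.1 FPKM in 427 cells and 311 in SP2bKD cells with DMSO, and 136 and 403 with PMA. Snai1, whose product represses Cdh1, had 1.61 FPKM with DMSO and 0.981 with PMA in 427 cells, and 1.25 and 0.797 in SP2bKD cells. The related and more abundant Snai2 was nearly level with PMA, at 15.2 and 13.4 FPKM in 427 cells and 11.7 and 12.0 in SP2bKD cells. With EICD 1 of the 7 epithelial markers was above 0 and 6 were below. Their median was -0.26, beside 0.07 for all loci, and Krt8 was past 2-fold lower at -1.02. Snai2 had 23.3 FPKM with GFP and 34.7 with GFP plus EICD. These values have no replicate check and were chosen after they were seen.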
